A study of Arabidopsis thaliana with 42 samples.

Results

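Roots of a bzip19 bzip23 double mutant of Arabidopsis thaliana were compared with wild type roots after a week of excess zinc. The comparison used 8 of the 42 arrays of the study, 4 of mutant roots and 4 of wild type roots, chosen by their labelled genotype, tissue and zinc supply. Both genotypes were of the Columbia (Col-0) background, and the mutant carries T-DNA insertions in bZIP19 and bZIP23. All plants grew hydroponically for 3 weeks at 2 µM zinc sulfate and then for 1 week at 25 µM, and were 4 weeks old at harvest. The other groups used below received 2 µM (normal) or 0.05 µM (low) zinc in that last week, or were shoots of the same design. Each sample pooled the roots or shoots of 6 plants from 2 containers. The mutant is 1 double insertion line with no complemented line among these samples, and the labels do not say that the samples of a group came from separate cultures. The p-values of the root comparison measure a spread between samples that is pooled over all root groups, not that of the 8 arrays alone. Part of this spread may therefore be technical.

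bZIP19 and bZIP23 are related basic leucine zipper transcription factors. They are known as regulators of the zinc deficiency response: when zinc is scarce they activate genes for zinc uptake and for the synthesis of metal chelators, and when zinc is plentiful they are kept inactive by the metal. Excess zinc is known to disturb iron uptake in Arabidopsis roots and to be accompanied by oxidative and cell wall responses. The comparison asks whether roots without this pair of factors differ from wild type at a supply at which the factors are not expected to be active.

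RNA was measured on Affymetrix ATH1 arrays, and each value is the log2 level of a probe set after robust multi-array averaging (RMA). A gene was called when its mutant minus wild type difference had an adjusted p under 0.05 in limma, fitted on all 24 root arrays and adjusted over 22746 probe sets. Differences below are on the log2 scale, mutant minus wild type, and folds are the same differences on the linear scale. Of the probe sets, 13513 (59.4%) are paired with 1 gene in the platform table, so many genes of zinc biology could not be read. The transcript of bZIP23 had no probe set of its own. Of the 12 genes in the list of bZIP19 and bZIP23 targets only ZIP9 had a probe set of its own.

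Before the results, 2 of the wild type arrays need to be described. Wild type replicate 2 had the lowest mean correlation with its own group among all root arrays, at 0.9803, where the other arrays compared here stood between 0.9882 and 0.9951. The GAPDH 3′ minus 5′ probe set difference, a sign of RNA integrity, is higher where RNA is degraded. On wild type replicate 2 it was -0.17 on the log2 scale, against 0.05 to 0.24 on the other 7 arrays. By this measure its RNA was not the more degraded. Wild type replicate 4 correlated more closely with the mutant arrays (mean r 0.9945) than with its own group (0.989), although its bZIP19 level of 9.84 was that of wild type. The same held by a smaller margin for wild type replicate 3 (0.9898 with the mutant arrays, 0.9882 with its own group). For replicate 3, however, the own-group mean included an r of 0.9768 with replicate 2, and its highest own-group r was 0.9947. For replicate 4 the highest own-group r was 0.993, below its mean with the mutant arrays. As a group the wild type arrays at excess zinc were the most dispersed of the 6 root groups. Their median SD per probe set was 0.158, against 0.113 in the mutant at excess zinc and 0.102 to 0.126 in the other 4 groups. The SEs and adjusted p-values of the root comparison below rest on the spread pooled over all 6 root groups. Where the arrays compared spread more than this pool, these SEs and p-values are too small and overstate the precision of the difference.

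In mutant roots at excess zinc, 336 probe sets (1.48%) were called. Of these 142 (0.624%) were higher and 194 (0.853%) lower than in wild type, and 186 of the 336 carried the name of 1 gene. Apart from bZIP19 and AT5G24240 the differences were moderate: 46 of the called probe sets (0.202% of all) differed at least 2-fold, 20 of them lower and 26 higher, and the median size of a called difference was 0.57. The values of the groups did not overlap for 248 of the 336 called probe sets (1.09% of all) and for 1252 (5.5%) of all probe sets. The median difference over all probe sets was -0.03, with 58.2% of them below 0 and 41.8% above. The counts of gene families below are given beside these shares and describe the families, most of which were assembled after the values were seen.

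The count rested heavily on the spread borrowed from the other root groups and on single arrays. With the 8 arrays fitted alone, 5 probe sets were called, and with the 16 root arrays of the same date, 46. Leaving out wild type replicate 1, 2, 3 or 4 gave 50, 78, 322 or 1305 calls, and leaving out mutant replicate 1, 2, 3 or 4 gave 49, 140, 24 or 516. Wild type replicate 4 was the wild type array closest to the mutant mean for 263 of the 336 called probe sets, and for 37.5% of all probe sets. None of the 336 differences changed sign under any of these alternatives, which share most of their arrays. With the 8 or the 16 arrays the differences are the same by construction, so their sign could not change there. The plot of called probe sets by setting shows these counts.

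**Figure D1:**
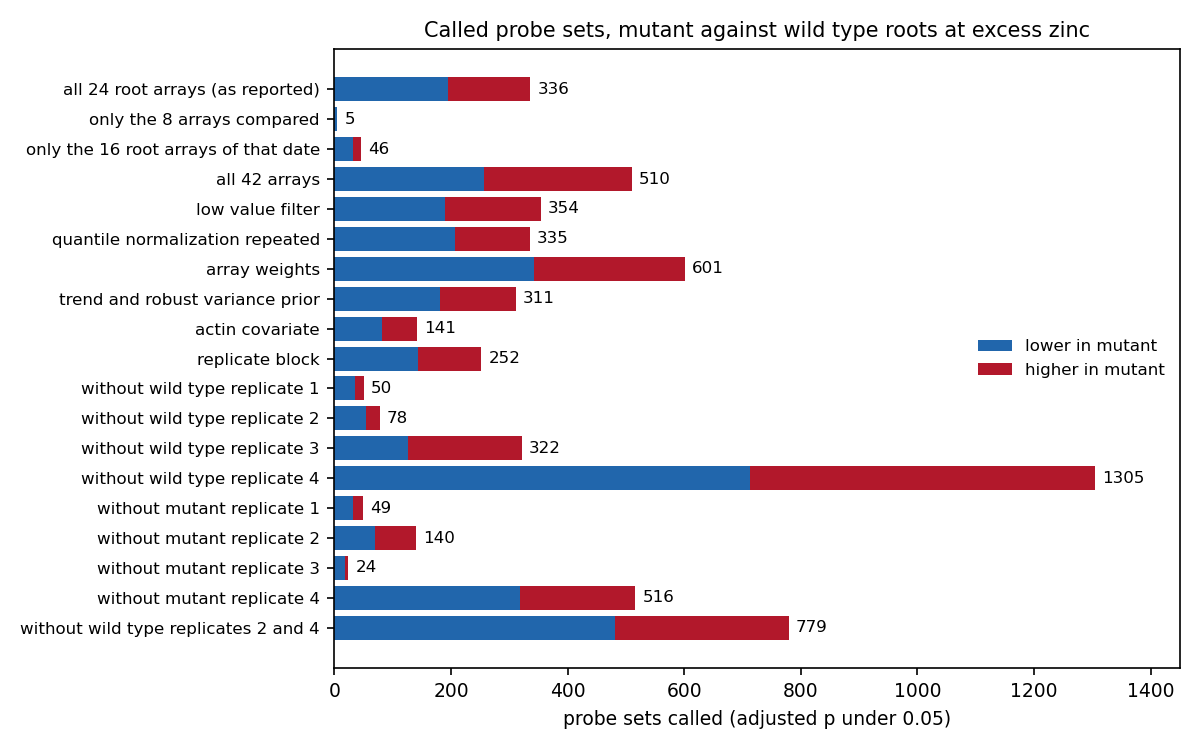
Number of probe sets called in mutant against wild type roots at excess zinc (horizontal axis), as reported and under each alternative (rows), with the part lower in the mutant in blue and the part higher in red. The count was 336 as reported, 5 with the 8 arrays alone, 24 without mutant replicate 3 and 1305 without wild type replicate 4.

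The transcript of the disrupted gene bZIP19 (AT4G35040) showed the genotype on every array. The wild type arrays read 9.82, 9.45, 9.67 and 9.84, and the mutant arrays 4.35, 4.83, 4.55 and 4.57. The groups were far apart, with a difference of -5.12 (SE 0.14, adjusted p = 1.02e-16), at least 34.7-fold. The mutant mean stood above only 13.3% of the probe sets, at which level background adds to the signal. Folds of other genes with a lower mean of 4.92 or less, the highest bZIP19 mean of any mutant group, are likewise given as at least that size.

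The next largest difference was that of AT5G24240, which belongs to the gamma family of phosphatidylinositol 4-kinases. It read 10.13, 10.66, 10.15 and 10.11 in wild type and 6.59, 6.54, 6.53 and 6.52 in mutant roots. The mutant arrays were within a narrow band and none approached the wild type, and the difference was -3.72 (SE 0.11, adjusted p = 1.93e-16), or 13.2-fold. bZIP19, AT5G24240 and the unnamed probe sets A and G were the 4 of the 336 that were called in all of 17 alternative settings, the fit of the 8 arrays alone included. Probe set A read 8.44 to 8.87 in wild type and 6.59 to 7.13 in mutant roots (difference -1.73, SE 0.13, adjusted p = 2.36e-08). Probe set G read 7.89 to 8.34 and 6.72 to 6.84 (difference -1.43, SE 0.10, adjusted p = 1.8e-08), and was lower in the mutant by 1.23 at normal zinc, 1.26 at low zinc and 1.11 in shoots at excess zinc.

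The nearest readable genes around bZIP19, bZIP23 and AT5G24240 on the chromosomes showed no called difference. Within 5 gene positions on each side, 2 probe sets near bZIP19, 7 near bZIP23 and 3 near AT5G24240 could be read, and their differences ranged from -0.22 to 0.18. Further out from AT5G24240 by locus number, AT5G24165 (0.74), AT5G24570 (0.80) and BGLU32 (AT5G24550, -2.16) were called. How many other probe sets in that wider stretch were called was not counted.

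Among known targets of the pair, ZIP9 alone could be read on a probe set of its own. ZIP9 (AT4G33020), a zinc transporter gene, read 7.71, 7.85, 7.05 and 7.17 in wild type and 7.07, 6.90, 7.13 and 7.05 in the mutant. The ranges overlapped, and the difference of -0.40 (SE 0.15) was not called (adjusted p = 0.168). At low zinc the difference was -1.42, and the genotype by zinc interaction between excess and low zinc was 1.01 (adjusted p = 0.0483). The defensin-like genes AT5G33355 and AT3G59930, which share a probe set, read 8.53, 7.79, 8.88 and 9.35 in wild type and 8.26, 8.59, 8.37 and 8.11 in the mutant. These values overlapped as well (difference -0.30, SE 0.23, adjusted p = 0.548), whereas the mutant was lower by 3.19 at normal zinc and by 5.46 at low zinc. Its mutant mean was 8.33 at excess, 8.30 at normal and 8.51 at low zinc, while the wild type mean went from 13.96 at low to 11.49 at normal and 8.64 at excess zinc. The change of the genotype difference with supply passed the test against normal zinc (interaction 2.88, adjusted p = 0.000121) and against low zinc (5.15, adjusted p = 1.2e-09). ZIP6, another transporter of the ZIP family, differed by 0.09 (adjusted p = 0.682).

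Among the genes lower in the mutant, the largest difference after bZIP19 and AT5G24240 was that of BGLU32 (AT5G24550), a beta-glucosidase of the family that releases sugars from glycosides. It read 6.61, 7.37, 6.81 and 5.70 in wild type and 4.33, 4.33, 4.20 and 5.00 in mutant roots. All mutant values lay below all wild type values, by at least 4.46-fold on average (difference -2.16, SE 0.31, adjusted p = 0.00171). The call was lost only with the 8 arrays alone, among the alternatives that tested it. BGLU27 (AT3G60120), of the same family, read 5.48 to 6.01 against 4.81 to 5.44 (difference -0.74, SE 0.13, adjusted p = 0.0096). Of 20 measured BGLU probe sets these 2 were called, both lower, where 0.853% of all probe sets were. The median difference of the 20 was -0.13, and -0.06 without wild type replicate 2. Both genes kept their call whichever single array was left out, and without wild type replicate 4 the family had 4 calls.

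Class III peroxidases, secreted haem enzymes that use hydrogen peroxide to oxidise cell wall phenolics, included several of the largest differences. AT5G64120 read 9.89, 10.70, 9.84 and 9.19 in wild type and 7.75, 8.64, 7.83 and 8.43 in the mutant. The groups were separate, with a 3.35-fold lower mean in the mutant (difference -1.74, SE 0.32, adjusted p = 0.0116). For AT1G14550 the wild type arrays read 9.47, 9.93, 9.32 and 8.77 and the mutant arrays 7.42, 8.01, 7.23 and 8.03, again without overlap (difference -1.70, SE 0.31, adjusted p = 0.0109). AT5G39580 stood at 11.10 ± 0.40 in wild type and 9.86 ± 0.35 in the mutant, and AT5G64110 at 7.68 ± 0.48 and 6.60 ± 0.28 (SD, n = 4; adjusted p = 0.0311 and 0.0358). A pair of peroxidase genes differed the other way. AT2G39040 read 6.60, 6.88, 5.81 and 7.07 in wild type and 8.27, 7.06, 8.08 and 7.61 in the mutant, so that its second mutant array fell just within the wild type range (difference 1.16, adjusted p = 0.0279). AT2G37130 rose by 0.51 (adjusted p = 0.0464). Of 55 measured class III peroxidase probe sets, 4 were called lower and 2 higher, 10.9% in all, where 1.48% of all probe sets were called. The median difference of the 55 was -0.04. Without wild type replicate 2 the counts were 2 lower and 1 higher, without wild type replicate 4 they were 9 and 4, and without mutant replicate 3 or with the 8 arrays alone none was called.

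Chitinases, which cleave chitin and are counted among pathogenesis-related proteins, were lower where they were called. AT2G43620 read 8.79, 8.79, 8.53 and 8.48 in wild type and 7.60, 7.97, 6.50 and 7.50 in the mutant. The wild type values were close together and the third mutant array lay well below the rest (difference -1.25, SE 0.25, adjusted p = 0.0171). AT2G43590 stood at 10.17 ± 0.55 and 9.21 ± 0.19, and AT2G43610 at 12.85 ± 0.19 and 12.42 ± 0.08 in wild type and mutant (SD, n = 4; adjusted p = 0.0362 and 0.0403). These 3 of 6 chitinase probe sets were called, all lower, where 0.853% of all probe sets were. The median difference of the 6 was -0.57. CHI differed by -0.71 (adjusted p = 0.0802) and was called at -0.88 without wild type replicate 4, and also with array weights. None of the 6 was called without wild type replicate 1 or 2 or without mutant replicate 3.

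FAD-linked oxidoreductases of the berberine bridge enzyme type, secreted enzymes some of which oxidise cell wall sugars, were also lower where they were called. AT1G26390 read 5.75, 6.30, 6.56 and 5.28 in wild type and 5.08, 4.80, 4.52 and 5.09 in the mutant (at least 2.14-fold, SE 0.19 on the log2 scale, adjusted p = 0.00603). AT4G20830 stood at 10.22 ± 0.31 and 9.46 ± 0.14, AT5G44400 at 8.64 ± 0.25 and 7.92 ± 0.22, and AT1G26420 at 5.78 ± 0.46 and 5.06 ± 0.31 (SD, n = 4). Of 22 such probe sets 4 were called, all lower, where 0.853% of all probe sets were. A difference below 0 was found for 18 of the 22, where 58.2% of all probe sets had one, and the median was -0.07. A single member was called without wild type replicate 1 or 2 or without mutant replicate 1 or 3, 8 without wild type replicate 4 and none with the 8 arrays alone. AT1G26380 had a difference of -1.12 that was not called (adjusted p = 0.148).

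Other genes named for the size of their fall had varied roles. AT2G30660, of the enoyl-CoA hydratase and isomerase family, read 8.65, 8.76, 8.55 and 7.72 in wild type and 7.21, 7.10, 7.08 and 7.29 in the mutant. Its mutant values spanned a narrow band below the wild type (difference -1.25, SE 0.20, adjusted p = 0.00468), and its call was lost only with the 8 arrays alone. NANA (AT3G12700), an aspartic protease gene, fell by 1.21 (SE 0.27, adjusted p = 0.0272). The CCCH-type zinc finger gene AT1G29600 fell by 1.07 (adjusted p = 0.0259), from 6.77 ± 0.57 to 5.70 ± 0.37. ATPMEPCRB (AT4G02330), a pectin methylesterase that removes methyl groups from cell wall pectin, fell by 1.05 (adjusted p = 0.0241), from 9.15 ± 0.48 to 8.10 ± 0.37 (SD, n = 4). AT3G54150, of the methyltransferase superfamily, fell by 0.99 (adjusted p = 0.0319). AT5G44060 read 9.69, 9.58, 9.79 and 9.61 in wild type and 9.21, 8.37, 8.49 and 8.69 in the mutant (difference -0.98, SE 0.14, adjusted p = 0.00218), and also lost its call only with the 8 arrays alone.

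**Figure D2:**
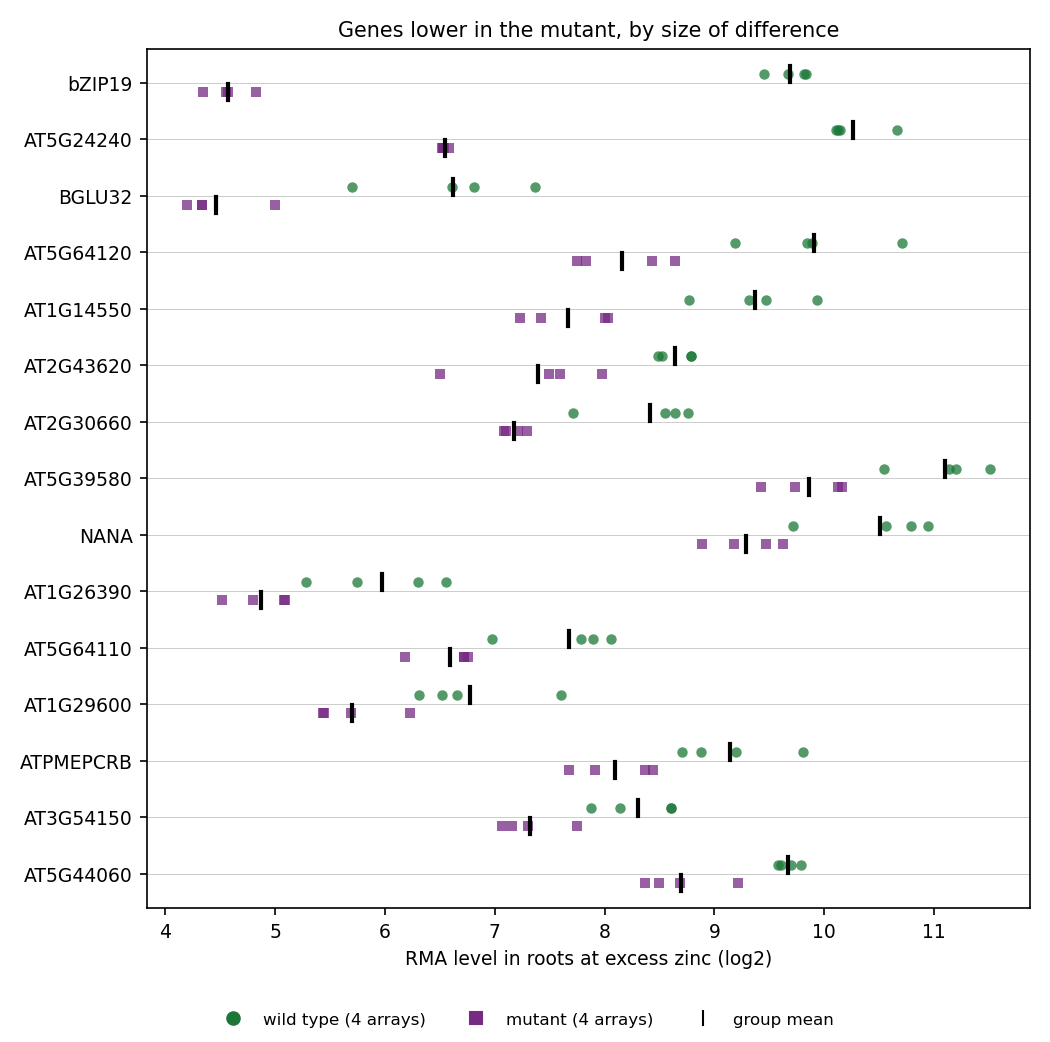
Log2 RMA level (horizontal axis) on each of the 4 wild type (green circles) and 4 mutant arrays (purple squares) of roots at excess zinc, for the 15 genes with the largest called fall and no overlap between groups, with group means as black bars. bZIP19 and AT5G24240 stand far apart, while in BGLU32, AT2G30660 and NANA the lowest wild type array, replicate 4, lies closest to the mutant values.

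Among the genes higher in the mutant, UPB1 (AT2G47270) had the largest difference. It encodes a basic helix-loop-helix factor known to repress peroxidase genes in the root, where it sets the place at which cells stop dividing and start to elongate. Its levels were 6.06, 5.17, 6.48 and 7.10 in wild type and 7.86, 7.56, 7.94 and 7.48 in the mutant. The mutant arrays were close together and all above the scattered wild type arrays, on average 2.84-fold (difference 1.51, SE 0.26, adjusted p = 0.00958). Besides the fit of the 8 arrays alone, only leaving out mutant replicate 3 ended its call, and with any single array left out the difference stayed between 1.16 and 1.81.

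Glutathione transferases of the tau class conjugate glutathione to toxic compounds. GSTU26 (AT1G17190) read 7.56, 6.90, 7.33 and 8.53 in wild type and 9.07, 8.64, 9.19 and 8.86 in the mutant. Wild type replicate 4 came close to the lowest mutant array, and the mean was 2.57-fold higher in the mutant (difference 1.36, SE 0.22, adjusted p = 0.00468). GSTU28 (AT1G53680) stood at 8.58 ± 0.57 and 9.40 ± 0.11 (SD, n = 4; adjusted p = 0.0404). These 2 of 11 measured GSTU probe sets were called higher, where 0.624% of all probe sets were. The median difference over the 11 was 0.11, and 0.04 without wild type replicate 2. Leaving out wild type replicate 4 gave 3 calls among the 11. The call of GSTU26 was lost only with the 8 arrays alone, whereas that of GSTU28 was lost in 10 of 17 alternatives.

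Small secreted proteins of the lipid-transfer type, which bind lipids in the cell wall, were higher where they were called. AT1G62510 read 5.93, 5.50, 5.58 and 6.27 in wild type and 7.15, 6.32, 6.84 and 7.24 in the mutant, so that the groups were only just separate (difference 1.07, SE 0.23, adjusted p = 0.0234). AT4G22460 rose by 0.92 (adjusted p = 0.043) and AT2G45180 by 1.03 (adjusted p = 0.0345), the last with overlap, since wild type replicate 4, at 9.17, was the highest of all 8 arrays. AT1G73780, a further gene of this type, went from 4.82 ± 0.39 to 5.64 ± 0.21 (SD, n = 4; at least 1.76-fold, adjusted p = 0.0437). Probe sets shared by neighbouring genes of this type moved the same way: that of AT5G46900 and AT5G46890 stood at 10.04 ± 0.87 and 11.65 ± 0.53 (difference 1.61, adjusted p = 0.0132), and that of AT4G12520 and AT4G12510 at 10.88 ± 0.74 and 12.04 ± 0.27 (SD, n = 4; difference 1.17, adjusted p = 0.0171). Of 9 listed probe sets with a single gene name, 3 were called, all higher, where 0.624% of all probe sets were, and the median of the 9 was 0.08. None of the 9 was called without wild type replicate 1 or 2 or without mutant replicate 1 or 3.

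All 3 genes annotated as related to a vacuolar calcium-binding protein were called higher, where 0.624% of all probe sets were. AT3G59370 read 7.17, 6.28, 7.22 and 7.74 in wild type and 8.95, 8.10, 8.59 and 8.27 in the mutant, AT1G12080 read 8.70, 8.43, 8.76 and 9.40 against 10.24, 9.61, 9.97 and 9.81, and AT1G62480 rose by 0.57 from 11.84 ± 0.22 (SD, n = 4). In each the groups were separate, with adjusted p of 0.0152, 0.0152 and 0.0121. The group was assembled after these values were seen, so its count describes the genes and is no test of the group. Leaving out wild type replicate 2 left 2 of the 3 called, leaving out wild type replicate 1 or mutant replicate 1 left 1, and leaving out mutant replicate 3 left none.

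XTH16 (AT3G23730), for a xyloglucan endotransglucosylase/hydrolase that remodels the wall, read 6.79, 7.60, 6.41 and 7.54 in wild type and 8.21, 7.83, 8.31 and 7.92 in the mutant (difference 0.98, SE 0.21, adjusted p = 0.0234). It was the only called member of 9 XTH probe sets, where 0.624% of all probe sets were called higher. The median of the 9 was 0.29. The call of XTH16 was lost without wild type replicate 1 or 3 or without mutant replicate 1 or 3. AT4G25250, a pectin methylesterase inhibitor, rose by 1.04 (SE 0.25, adjusted p = 0.0374), and AT5G62340, of the invertase and pectin methylesterase inhibitor family, by 0.80 (SE 0.15, adjusted p = 0.014). RALFL27, for a secreted peptide of the RALF family of growth signals, went from 6.65 ± 0.68 to 7.89 ± 0.33 (SD, n = 4; adjusted p = 0.016), with 1 wild type array above the lowest mutant array.

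ATG8H (AT3G06420), a member of the ubiquitin-like ATG8 family that coats autophagosomes, read 7.98, 7.39, 7.81 and 8.40 in wild type and 8.59, 8.59, 8.80 and 8.82 in the mutant (difference 0.80, SE 0.15, adjusted p = 0.012). It was the only called of 8 ATG probe sets, where 0.624% of all probe sets were called higher. All 8 had a difference above 0, where 41.8% of all probe sets had one, with a median of 0.51. ATG8C, ATG8E and ATG8F, at 0.61, 0.63 and 0.37, were called in 1 of 18 alternatives, when wild type replicate 4 was left out. Without wild type replicate 2 the median of the 8 was 0.25. The remaining genes named by size were AT3G10020, which rose by 0.98 (adjusted p = 0.0477), AT4G28085 by 0.94 (adjusted p = 0.0345) and AT2G24040, of a family of small hydrophobic membrane proteins, by 0.90 (adjusted p = 0.0292). The call of AT3G10020 held in 5 of 17 alternatives and that of AT2G24040 in 10. The call of AT4G28085 held in 8 of 17 alternatives, and its difference was 0.60 without wild type replicate 2.

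**Figure D3:**
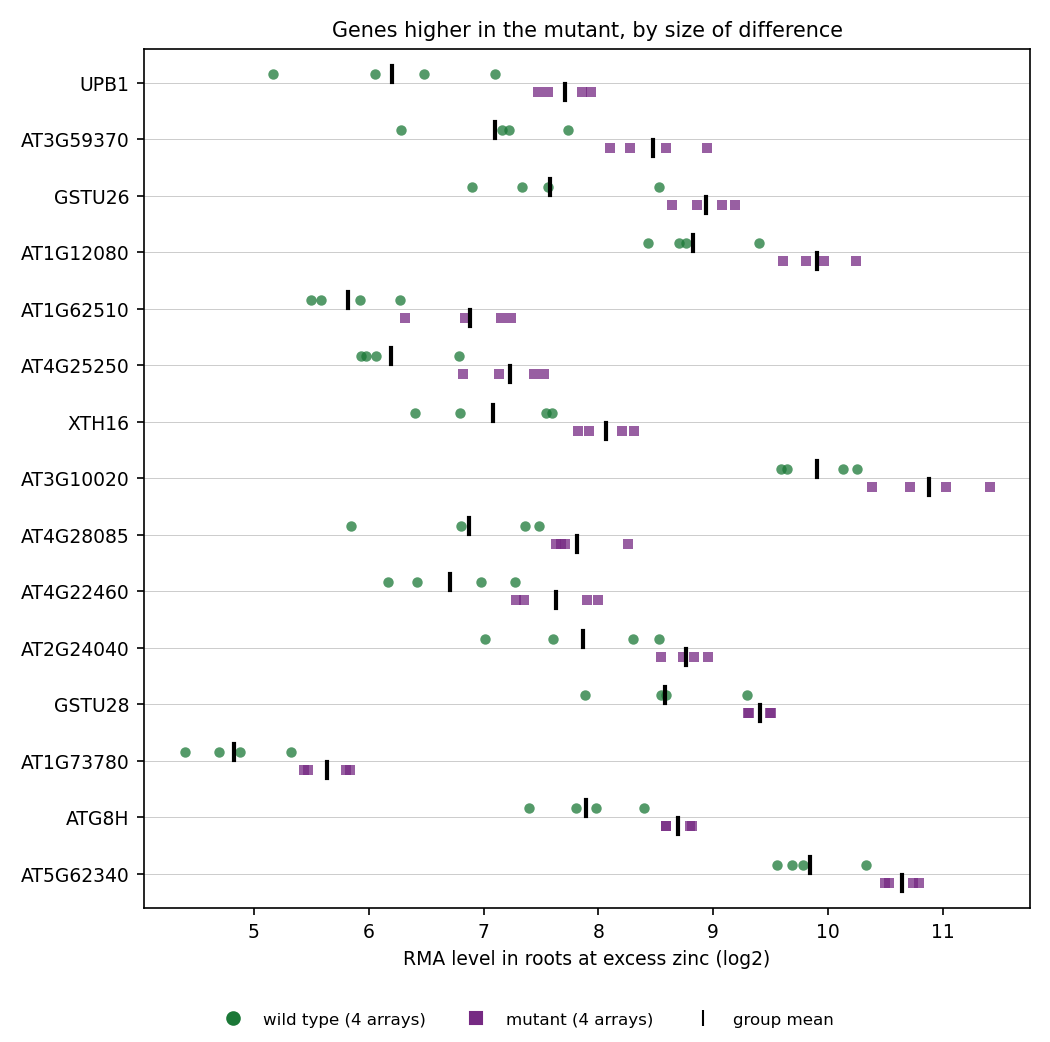
Log2 RMA level (horizontal axis) on each of the 4 wild type (green circles) and 4 mutant arrays (purple squares) of roots at excess zinc, for the 15 genes with the largest called rise and no overlap between groups, with group means as black bars. The wild type values are the more scattered ones in most genes, as in UPB1, where they run from 5.17 to 7.10 and the mutant values from 7.48 to 7.94.

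How far these calls held with fewer arrays can be given for the 30 genes named by size. With the 8 arrays alone only bZIP19 and AT5G24240 kept their call, and with the 16 arrays of that date 16 of the 30 did. Without wild type replicate 1, 2, 3 or 4 the number was 13, 13, 21 or 30, and without mutant replicate 1, 2, 3 or 4 it was 11, 23, 7 or 27. BGLU32, AT2G30660, AT1G26390, AT5G44060 and GSTU26 kept their call whichever single array was left out. Several smaller differences, singled out after their values were seen, also lost their call only with the 8 arrays alone: PLIM2b, an actin-bundling LIM protein gene (0.50, SE 0.07, adjusted p = 0.0016), and AT2G04400, an indole-3-glycerol phosphate synthase of tryptophan synthesis (-0.60, SE 0.10, adjusted p = 0.00468).

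At normal zinc the same genes mostly differed little between genotypes. Of the 336 called probe sets, 284 (84.5%) had a difference of the same sign at normal zinc, where 60.8% of all probe sets did, but 8 were called there. Their medians were small: 0.12 for those higher and -0.16 for those lower at excess zinc, against 0.63 and -0.53 at excess zinc. The 336 were selected on their values at excess zinc, which enlarges their differences there and not at the other supplies. The contrast of these medians is therefore no test of a change with supply. At low zinc 119 (35.4%) had the same sign, against 50.4% of all probe sets, with medians of -0.07 and 0.05, and 7 were called. In shoots at excess zinc 178 (53%) had the same sign, against 55.6% of all probe sets, and 3 were called. In these other comparisons 13 probe sets were called in roots at normal zinc (0.0572%), 19 in roots at low zinc (0.0835%) and 7 in shoots at excess zinc (0.0308%).

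**Figure D4:**
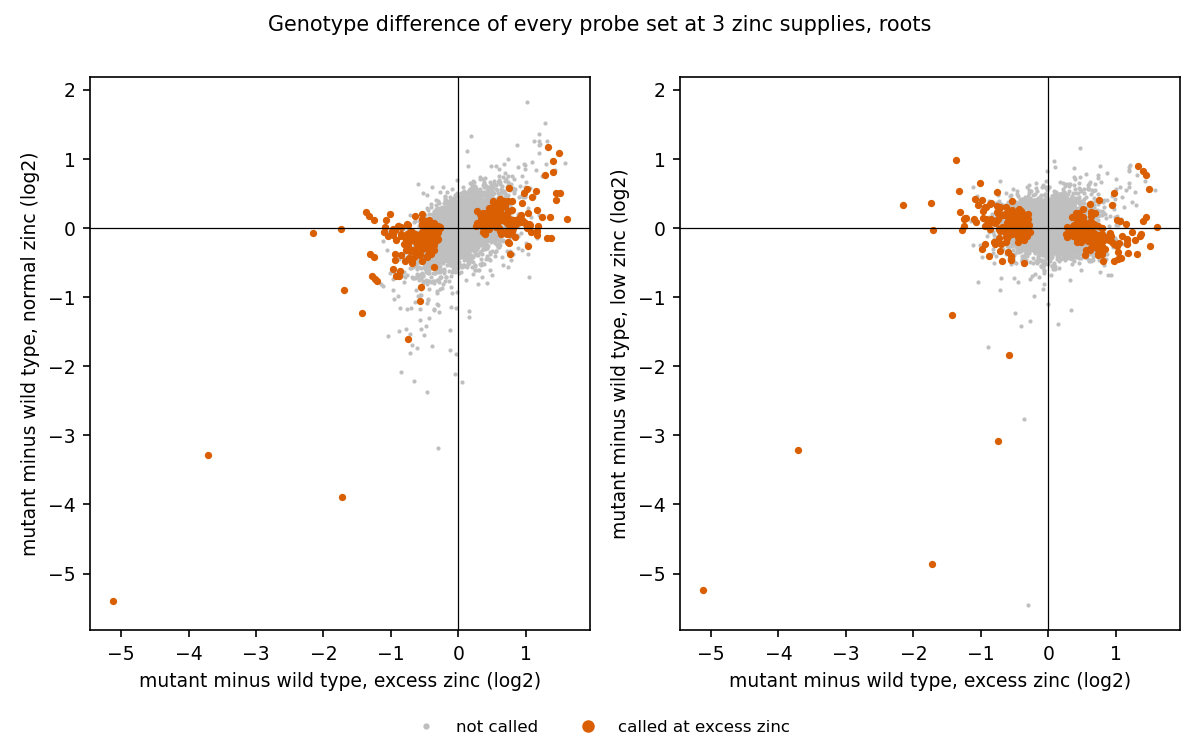
Mutant minus wild type difference (log2) of every probe set in roots at excess zinc (horizontal axes) against that at normal zinc (left, vertical axis) and at low zinc (right, vertical axis), with the 336 probe sets called at excess zinc in orange. Of the orange points, 309 lie within 0.5 of 0 at normal zinc and 320 at low zinc. The others run down to -5.40 and -5.24 and up to 1.17 and 0.98.

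Whether the genotype difference itself changed with supply was tested by the genotype by zinc interaction. Between excess and normal zinc it passed for 3 probe sets (0.0132%), the shared one of AT5G33355 and AT3G59930 and the unnamed A and B, and in all 3 the mutant was further below wild type at normal zinc. None of the 30 genes named by size passed it. The interaction was -2.09 for BGLU32 (adjusted p = 0.186), -1.74 for AT5G64120 (adjusted p = 0.398), 1.00 for UPB1 (adjusted p = 0.659) and 1.52 for AT3G59370 (adjusted p = 0.356). The differences of these genes at excess zinc are thus not shown to differ from those at normal zinc. Without wild type replicate 4, 31 probe sets passed.

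Between excess and low zinc the interaction passed for 38 probe sets (0.167%), 19 in each direction. BGLU32 was among them, at -2.50 (adjusted p = 0.0214), with AT4G20830 at -1.29 (adjusted p = 0.0444), BGLU27 at -0.96 (adjusted p = 0.0443) and WRKY53, a transcription factor of senescence and defence, at -0.93 (adjusted p = 0.00591). In the other direction AT1G12080 stood at 1.52 (adjusted p = 0.0443), XTH16 at 1.45 (adjusted p = 0.0462) and ATG8H at 1.07 (adjusted p = 0.0443). Arrays of low zinc roots carry another date in their labels than those of excess zinc, for both genotypes alike. This count too moved with single arrays: without wild type replicate 1, 2, 3 or 4 it was 13, 23, 17 or 616, and without mutant replicate 1, 3 or 4 it was 9, 8 or 82.

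Between roots and shoots at excess zinc the genotype difference passed the tissue interaction for 38 probe sets (0.167%), 37 of them lower and 1 higher in roots. BGLU32 (-2.15, adjusted p = 0.00782), AT5G64120 (-2.02, adjusted p = 0.0437) and AT1G14550 (-1.83, adjusted p = 0.0433) were the named genes with the largest values. Their differences in shoots were -0.01, 0.28 and 0.13. AT5G62340 was the exception on the higher side, at 1.00 (adjusted p = 0.0433). Root and shoot arrays carry different dates in their labels.

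The response of each genotype from normal to excess zinc can be set beside these values. The comparisons share the 8 excess zinc arrays with the genotype comparison, so the numbers are the same data read in another direction. BGLU32 rose by 2.61 in wild type (adjusted p = 5.82e-06) and by 0.52 in the mutant (adjusted p = 0.419). Its mean in wild type at normal zinc and in the mutant at both supplies lay below 4.92, near background. The rise in wild type is thus a lower bound, and the change in the mutant was read near background. AT5G64120 rose by 2.75 and 1.01, AT1G14550 by 1.99 and 1.19, and AT2G30660 by 2.49 and 1.67 in wild type and mutant. The chitinase gene AT2G43620 rose by 1.27 in wild type and stood at -0.10 in the mutant. UPB1 fell by 1.52 in wild type and stood at -0.51 in the mutant (adjusted p = 0.331), GSTU26 fell by 1.59 and stood at -0.39, and AT3G59370 fell by 1.71 and stood at -0.19. In each of these genes the change from normal zinc was smaller in the mutant than in wild type, although none passed the interaction test given above. The genes were named for their difference on the same excess zinc arrays, and that choice by itself favours this direction. Over all probe sets 2206 (9.7%) were called between excess and normal zinc in wild type and 1153 (5.07%) in the mutant.

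**Figure D5:**
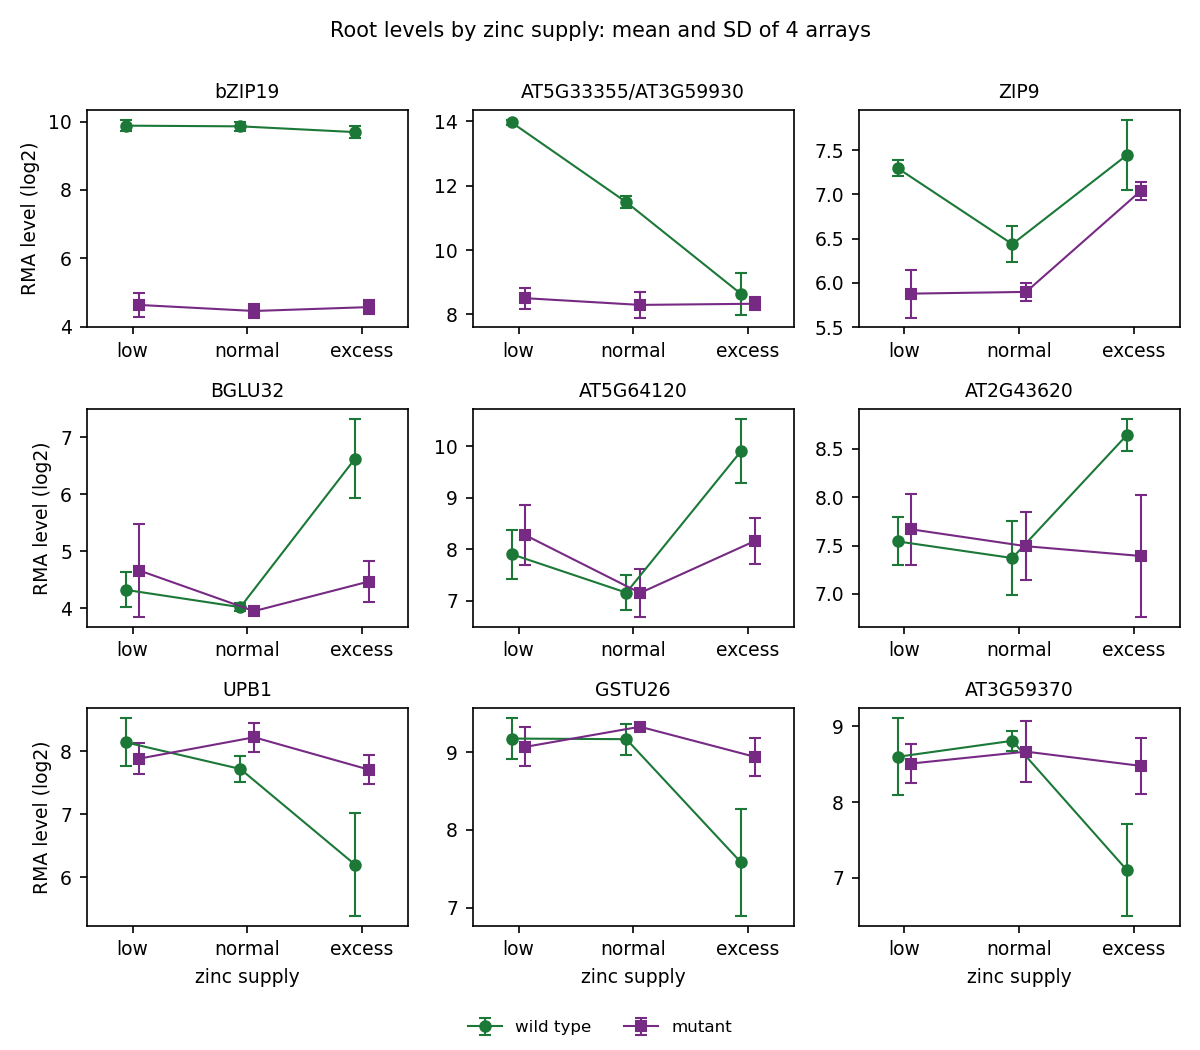
Mean log2 RMA level (vertical axes) with SD of the 4 arrays in wild type (green circles) and mutant roots (purple squares) at low, normal and excess zinc, for 9 genes. bZIP19 is low in the mutant at every supply, the shared probe set of AT5G33355 and AT3G59930 falls with zinc supply in wild type alone, and BGLU32, AT5G64120, AT2G43620, UPB1, GSTU26 and AT3G59370 separate by genotype at excess zinc.

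Of 16 genes listed because they responded strongly to excess zinc in wild type, 7 were called here (43.8%), 3 lower and 4 higher, where 1.48% of all probe sets were called. Without mutant replicate 3 the counts were 2 lower and none higher. The list was drawn up from results of these same wild type arrays. Neither its share of calls nor their direction is therefore independent evidence. Called lower were BGLU32, AT5G64120 and AT2G30660, and called higher were UPB1, XTH16, AT3G59370 and AT4G25250. The other 9 did not pass. Among them UGT72E1, a glycosyltransferase of monolignols, differed by -0.37 (adjusted p = 0.245) after a rise of 2.52 in wild type and 2.49 in the mutant. The dioxygenase-type genes AT1G52790, AT1G52820 and AT1G80320 differed by -0.0044, -0.084 and -0.08, and changed from normal to excess zinc by -2.53, -2.52 and -2.28 in wild type and by -1.95, -2.13 and -1.80 in the mutant. Large zinc responses with nearly equal levels in both genotypes were thus also present.

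Genes of the iron deficiency response did not pass. Of the 30 listed genes 10 could be read, on 11 probe sets, and none was called. Their median difference was -0.31, with 9 of the 11 below 0, where 58.2% of all probe sets were. BTSL1 (AT1G74770), an E3 ligase that restrains iron uptake, differed by -0.42 and -0.50 on its 2 probe sets (adjusted p = 0.087 and 0.109). AT3G12900, for the scopoletin 8-hydroxylase of fraxetin synthesis, read 12.02, 12.21, 11.41 and 10.51 in wild type and 10.49, 10.92, 10.56 and 10.89 in the mutant. Its ranges overlapped through wild type replicate 4 (difference -0.82, adjusted p = 0.444), after rises of 3.68 and 2.88 from normal to excess zinc in wild type and mutant. AT3G13610, the feruloyl-CoA hydroxylase of coumarin synthesis, differed by -0.31 (adjusted p = 0.173, called with array weights), PYE, a basic helix-loop-helix regulator, by -0.26 (adjusted p = 0.484), and BHLH101, of the group that induces iron uptake, by 0.13 (adjusted p = 0.634). Without wild type replicate 4, BGLU42 (-0.65), the AT1G74770 probe set with the smaller difference (-0.50) and AT1G28680 (-0.42) were called lower. The 5 marker loci of iron deficiency showed no call either, with a median of -0.02. AT5G38820 among them, at -0.51 (adjusted p = 0.168), was called at -0.66 without wild type replicate 4.

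Other lists gave few calls. None of the 10 defensin probe sets was called (median 0.02), and none of the 2 of copper homeostasis. None of the 11 of the hypoxia response was called either. Their median was -0.04, but it was -0.51 without wild type replicate 2 and 0.19 without wild type replicate 3, and AT1G19530 was called higher without wild type replicate 4. CCS, the copper chaperone of superoxide dismutase, differed by 0.01. ATHSP22.0, a small heat shock protein and the only measured member of its list, was lower by 0.46 (adjusted p = 0.0234). COR47, a dehydrin induced by cold and drought, was higher by 0.53 (adjusted p = 0.0279). It was the only called of 4 measured genes of that list, where 0.624% of all probe sets were called higher. It kept its call with 3 of the 8 arrays left out in turn. Single measured members of the efflux, chelation and clock lists, MTPA1, MT1C and GI, differed by -0.20, 0.16 and 0.08 and were not called. The 2 genes of sulfate starvation and the 3 of flavonoid synthesis were not called either.

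Enzyme families of secondary metabolism had a few members lower. Of 47 UGT glycosyltransferase probe sets 3 were called, all lower, where 0.853% of all probe sets were. A difference below 0 was found for 38, where 58.2% of all probe sets had one, with a median of -0.11 (-0.06 without wild type replicate 2). UGT72E2, which glucosylates monolignols, fell by 0.76 (adjusted p = 0.0231), UGT74B1, of glucosinolate synthesis, by 0.38 (adjusted p = 0.0393), and UGT76C2, which glucosylates cytokinins, by 0.37 (adjusted p = 0.0387). No UGT probe set was called without wild type replicate 1 or 2 or without mutant replicate 2 or 3, and 6 lower and 1 higher were called without wild type replicate 4. Of 21 cytochromes P450 of the CYP71 group 2 were called, both lower, where 0.853% of all probe sets were. CYP71B22 fell by 0.97 (adjusted p = 0.0358) and CYP71B6 by 0.49 (adjusted p = 0.033), with a median of -0.04 over the 21. None of the 21 was called without wild type replicate 1 or 2 or without mutant replicate 1 or 3, and 4 without wild type replicate 4. WRKY53 fell by 0.54 (SE 0.10, adjusted p = 0.016) and was the only called of 6 WRKY probe sets, where 0.853% of all probe sets were called lower. Its call was lost without wild type replicate 1 or mutant replicate 3. Of 9 PUB ubiquitin ligase probe sets none was called, and 2 were without mutant replicate 4.

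The labelled tissue was checked against its markers. The root hair expansin genes EXPA7 and EXPA18, the only measured root markers of 10, had a mean level of 7.12 to 8.25 in wild type and 8.02 to 8.60 in mutant roots, against 5.83 to 5.98 in wild type shoots at the same supply. Neither was called between genotypes, with differences of 0.62 and 0.35. The 3 measured of 16 markers of photosynthetic tissue, PSAN, CHLM and RCA, had a mean level of 6.71 to 7.04 in wild type and 6.84 to 7.81 in mutant roots, against 12.92 to 12.95 in wild type shoots. Their differences were 0.99, 0.48 and 0.08 and were not called, PSAN having an adjusted p of 0.119. Without mutant replicate 4, PSAN and CHLM were called higher, and PSAN was also called with all 42 arrays. The actin 3′ minus 5′ difference, another sign of RNA integrity, ran from 1.097 to 1.248 in wild type and from 1.15 to 1.48 in mutant roots, and with it as a covariate 141 probe sets were called. Whether these levels have a part in the differences above was not tested. In bulk RNA a change in the share of a cell type and a change of RNA within cells cannot be told apart.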

How the data were processed

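Total RNA of roots and shoots was labelled with biotin and hybridised to ATH1 arrays, 42 in all, per the labels. The deposited values are log2 levels per probe set, made by the authors with RMA, per the submitters' processing notes, which also name limma; no version is named there. Array medians of the 8 arrays compared ran from 6.91 to 6.97. For arrays, their number limits the precision, 4 per root group.

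The 64 control probe sets were left out. limma 3.58.1 in R 4.3.3 was fitted to 24 root arrays with 1 mean per group (18 residual degrees of freedom), to 18 shoot arrays (12) and, for the tissue interaction, to all 42 (30). Tests were two-sided, adjusted by Benjamini-Hochberg over 22746 probe sets, with no filter on low values. The script was tested on simulated data. Tables used Python 3.11.15 and pandas 2.3.3, plots matplotlib 3.10.9. Gene names came from the platform table and RefSeq of TAIR10.1 (13436 probe sets matched).

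Named by size were up to 15 genes in each direction, among called probe sets paired with 1 gene whose groups did not overlap. bZIP19, bZIP23, AT5G24240, measured targets, up to 6 members of each list by smallest p, and up to 5 probe sets per direction of each interaction were added. Unnamed probe sets carry letters. The members, lists and comparisons were chosen with earlier results of these data known. The groups of peroxidases, oxidoreductases, chitinases, lipid-transfer-type proteins and calcium-binding-related proteins and the families by symbol were added after the values were seen, as were all names outside the rule. Lists with no measured member were iron storage, phosphate starvation, suberin, salicylate and jasmonate defence, and cell division.

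Same-numbered wild type and mutant arrays did not deviate together throughout (r of 0.277, 0.311, -0.279 and -0.117), so the numbers were not used as pairs. Alternatives covered the arrays fitted, a filter, the normalization, array weights, the variance prior, an RNA quality covariate, a replicate block and each replicate left out.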

Additional observations from a re-analysis of the deposited data

Results flagged for a closer look

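In 5 of 64 groups of 4 arrays, over 32 genes, a single array lay far from the other 3 by Dixon's criterion, which chance meets in about 1 of 20 groups. These arrays were wild type replicate 2 for AT5G24240 (10.66), mutant replicate 4 for BGLU32 (5.00), mutant replicate 3 for AT5G64110 (6.18), wild type replicate 4 for AT4G25250 (6.79) and mutant replicate 4 for AT4G28085 (8.26).

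The genotype difference changed between normal and excess zinc, by the interaction test, for the probe set of AT5G33355 and AT3G59930 (2.88) and for the unnamed probe sets A (2.16) and B (0.81). Between low and excess zinc it changed for the same 3 (5.15, 3.13 and 2.39), for probe set C (2.33) and for AT1G12080 (1.52). In the other direction the same test passed for BGLU32 (-2.50), probe set D (-2.35), probe set E (-1.86), AT4G20830 (-1.29) and probe set F (-1.22). Between shoots and roots at excess zinc the genotype difference changed for BGLU32 (-2.15), AT5G64120 (-2.02), AT1G14550 (-1.83), probe set A (-1.74), probe set L (-1.65) and AT5G62340 (1.00).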

How the results depend on the processing

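No call of the genotype comparison changed sign under any alternative. A change was not possible where the same 8 arrays and values were kept and only the estimate of spread differed. The other settings share most of their arrays with the reported fit. Called in all 17 settings, those chosen after seeing the data left aside, were 4 of the 336. The median was 9 settings. The count was 5 with the 8 arrays alone, 46 with the 16 root arrays of that date, 510 with all 42 arrays, 601 with array weights and 141 with the actin covariate. Without wild type replicates 2 and 4 together, chosen after seeing the data, it was 779. With single arrays left out it ran from 24 to 1305. The interaction of excess against normal zinc, 3 as reported, was 8 with all 42 arrays and ran from 2 to 31 with single arrays left out. That of excess against low zinc, 38 as reported, was 121 with all 42 arrays, 24 with quantile normalization repeated, 358 with array weights and 19 with the actin covariate, and ran from 8 to 616 with single arrays left out. The cause of these shifts was not tested.

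With the replicate number as a block the counts were 252 for the genotype comparison, 4 and 52 for the interactions against normal and low zinc, and 47 for the tissue interaction, where 38 passed without it. At normal and low zinc in roots and at excess zinc in shoots the block gave 11, 18 and 7 calls against 13, 19 and 7. The samples share only a number, so the block is no better guide than the fit without it.

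Leaving out wild type replicate 4 gave the highest of these counts in the genotype comparison and in both zinc interactions. An unadjusted p under 0.05 was found for 3870 probe sets. A single insertion line, 8730 probe sets with no gene name and values near background, where folds are lower bounds, limit what can be read.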
